A study of Gallus gallus with 9 samples.

Results

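The regions described here are the most heavily methylated stretches in a list of sperm DNA regions of broiler males. They are the 589 of 6428 listed regions (9.16%) whose mean methylation over 9 birds was above 60%. They were chosen by that mean alone, so their high level is a description and not a result. Reduced representation bisulfite sequencing (RRBS), which enriches CpG-rich DNA by a restriction digest and reads unmethylated cytosines as thymines after bisulfite treatment, was run on sperm collected from each male separately, and each library is 1 bird. The control group (F0C, 5 Cobb males) hatched from eggs kept at 37.8 °C and 56% humidity over 21 days of incubation. The heat-conditioned group (F0EHC, 4 Cobb males) hatched from eggs exposed to 39.5 °C and 65% humidity for 12 h a day on embryonic days 7 to 16. Temperature and humidity were raised together, so their effects cannot be told apart. Chicks of both groups were raised at 32 °C and, from day 7, at 30 °C, and only adult males were sampled.

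Methylation of cytosines in CpG pairs is the main chemical mark on vertebrate DNA. Much of the genome carries it in sperm, while CpG-rich promoters, which RRBS favours, usually stay free of it. Methylated promoters are mostly those of silent genes, while the bodies of active genes can be methylated too. The comparison asks whether sperm of males that were warmed as embryos differed in methylation from sperm of control males.

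The list itself limits what can be read from it. The regions were segmented by the authors on the contrast of these same libraries, and hardly any region with a small difference is on the list. The smallest absolute difference between group means among the 589 regions was 1.86 percentage points. The study reports far fewer differentially methylated regions than the list holds. Which of the listed regions these are was not singled out here, so a listed region is not necessarily one of them. A difference between F0EHC and F0C was thus part of what put a region on the list, and no p-value below is independent evidence of one. Values are mean methylation percentages per region and bird, and the read depth behind them is unknown.

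The 589 regions lay mostly just above the threshold. Their means over 9 birds had a median of 63.6% and quartiles of 61.5% and 67.1%, and 367 (62.3%) were between 60% and 65%. Only 72 were above 70% and 3 above 80%. Few were high in every bird, since 117 were above 60% in all 9 libraries and 472 had at least 1 library at or below 60%. Both group means were above 60% in 361 regions, the F0C mean was at or below 60% in 103 and the F0EHC mean in 125. Nearest above the threshold, with no test, were chr22:1322958-1323067 (mean 60.004%), chr18:6010347-6010390 (60.005%) and chr5:96809-96866 (60.01%). Nearest below it were chr20:10688128-10688204 (59.998%), chrUn_NT_464166v1:50738-50797 (59.98%) and chr4:11025269-11025512 (59.98%). The threshold thus divides regions of nearly the same level.

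Averaged over the 589 regions, the groups were at the same level. The F0C birds 1 to 5 stood at 64.7%, 61.8%, 67.5%, 65.9% and 63.9%. The F0EHC birds 1 to 4 stood at 65.3%, 67.2%, 64.9% and 62.0%. The group means were 64.8% ± 2.13 (SD, n = 5) and 64.9% ± 2.15 (SD, n = 4), and the difference of 0.0896 points was far smaller than the spread between birds. Over all 6428 listed regions the means were 34.2% ± 1.16 (SD, n = 5) and 34.9% ± 1.37 (SD, n = 4). F0EHC replicate 4 and F0C replicate 2, the libraries with the lowest averages, gave the lowest value of the 9 birds in 144 (24.4%) and 127 (21.6%) of the highly methylated regions. The highest value came most often from F0EHC replicate 2 (119 regions) and F0C replicate 3 (108 regions). Each group therefore held a bird that was often lowest and a bird that was often highest.

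**Figure D1:**
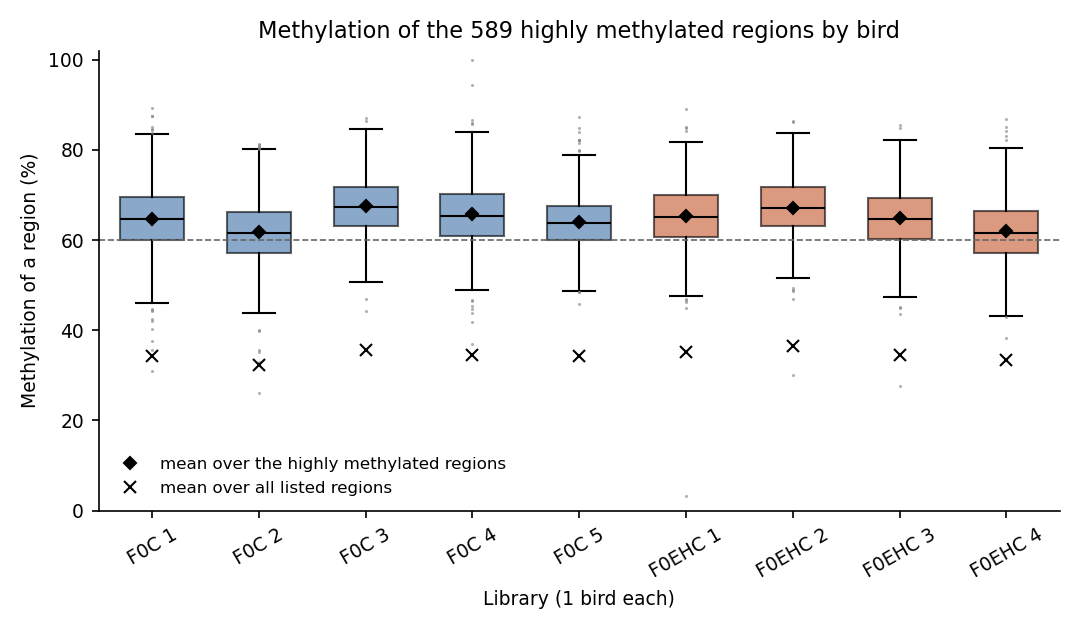
Methylation of the 589 highly methylated regions (vertical axis, percent) in each of the 9 libraries (boxes are quartiles, whiskers reach 1.5 times the box height at most, points lie beyond; diamonds are means; crosses are means over all 6428 listed regions). The means range from 61.8% to 67.5% in F0C and from 62.0% to 67.2% in F0EHC, and the dashed line marks the threshold of 60%.

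Gains and losses, that is, means higher or lower in F0EHC than in F0C, were about equally frequent among the highly methylated regions. In 296 the F0EHC mean was above the F0C mean and in 293 it was below it (50.3% higher, against 56.0% of all listed regions and 56.4% of the 2889 regions between 40% and 60%). The share was 67.1% at or below 5%, 48.5% from 5% to 20% and 52.4% from 20% to 40%. A near-even split was thus not particular to the highly methylated regions. The median gain was 4.88 points and the median loss -4.59 points. The median absolute difference was 4.74 points, against 4.55 over all listed regions and 5.38 in the regions between 40% and 60%. In the 296 higher regions the F0C birds averaged 62.2% ± 2.42 (SD, n = 5), and the F0EHC birds 67.5% ± 1.97 (SD, n = 4). In the 293 lower regions the F0C birds averaged 67.3% ± 2.01 (SD, n = 5), and the F0EHC birds 62.2% ± 2.33 (SD, n = 4). These splits were made on the sign of the difference itself and are given with no test.

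**Figure D2:**
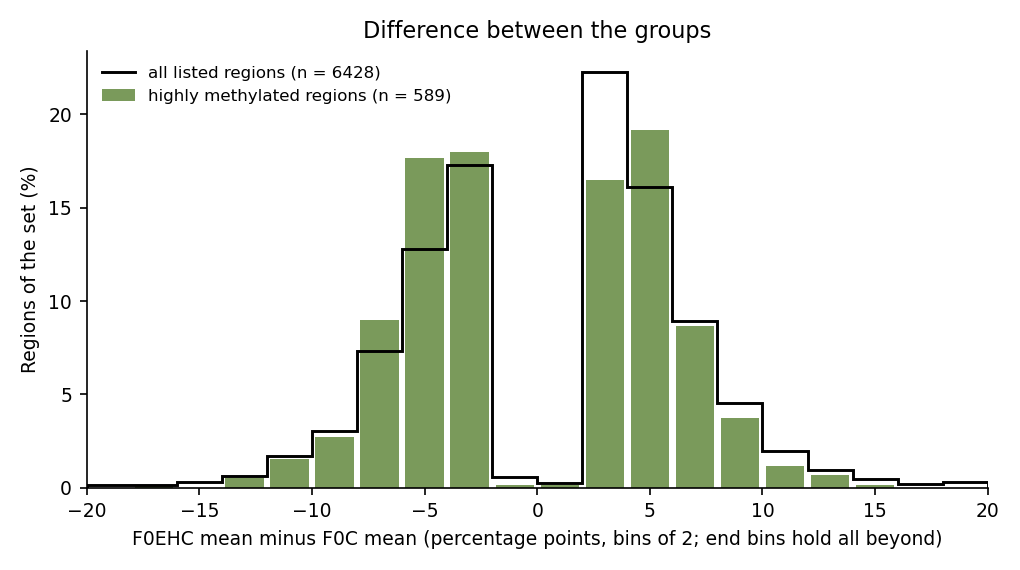
F0EHC mean minus F0C mean (horizontal axis, percentage points in bins of 2) as the share of regions in each set (vertical axis, percent), for the 589 highly methylated regions (bars) and all 6428 listed regions (line). The bins next to 0 hold 0.17% of the highly methylated regions on each side, and 12 regions gained and 13 lost at least 10 points.

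Differences that were large or free of overlap were few among the highly methylated regions. A gain of 10 points or more was seen in 12 regions (2.04%, against 3.9% of all listed regions) and a loss of that size in 13 (2.21%, against 2.91%). Every F0EHC bird was above every F0C bird in 12 regions (2.04%, against 4.81% of all listed regions), and every F0EHC bird was below in another 12 (2.04%, against 2.99%). In limma fitted over all 6428 regions, 40 highly methylated regions were higher at an unadjusted p under 0.05 (6.79%, against 12.9% of all) and 36 were lower (6.11%, against 6.29% of all). After Benjamini-Hochberg adjustment over all listed regions the limma count was 0 in the highly methylated regions, as in the whole list (0%), and the smallest adjusted p was 0.256. Exact permutation of the 9 libraries gave p under 0.05 in 76 of the 589 regions (12.9%) and in 1353 of all listed regions (21.0%), with a smallest adjusted p of 0.178. The share without overlap over the whole list owed much to regions at or below 5%, of which 13.3% were higher in F0EHC without overlap. In the regions between 40% and 60%, 2.60% were higher and 1.80% lower without overlap, shares close to those of the highly methylated regions. There, 4.19% gained and 3.08% lost 10 points or more, and at an unadjusted limma p under 0.05 9.31% were higher and 5.47% lower. Of the regions at or below 5%, 31.8% were higher by limma and 0% differed by 10 points or more. The differences between these shares were not tested.

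The balance of gains and losses at these criteria, though not by sign alone, depended on the scaling of the libraries. By sign alone, 296 regions were higher and 293 lower with centring as without it. No absolute difference was below 1.86 points, so signs could hardly change. With each library centred on its mean over all listed regions, a scaling chosen after seeing the data, limma gave 37 higher and 77 lower highly methylated regions where the values as deposited gave 40 and 36. Without overlap there were then 10 higher and 31 lower in place of 12 and 12, and the mean difference over the 589 regions was -0.60 points. The mean over all listed regions is not a neutral reference, since the list was segmented on this same contrast. It was 34.2% in F0C and 34.9% in F0EHC. Centring thus moved the difference of every listed region towards a loss, and the shift of the mean difference is built in. It is not particular to the highly methylated regions, and counts over all listed regions with centring are not given here. Centring also changes the spread within groups, so the changed counts need not follow from the shift alone.

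The counts of regions without overlap depended on single birds. By construction such a count can only grow when a bird is removed, in any set of regions. Counts over all listed regions with a bird left out are not given here. The changes below are thus not shown to be particular to the highly methylated regions. The 12 higher regions became 34 without F0C replicate 3, 21 without F0C replicate 4, 19 without F0C replicate 5, 25 without F0EHC replicate 3 and 40 without F0EHC replicate 4. The 12 lower regions became 30 without F0C replicate 2, 19 without F0C replicate 4, 25 without F0C replicate 5, 28 without F0EHC replicate 1, 36 without F0EHC replicate 2 and 21 without F0EHC replicate 3. The limma count of 40 higher regions became 69 without F0C replicate 3 and 23 without F0EHC replicate 2. The limma count of 36 lower regions became 21 without F0C replicate 3, 22 without F0EHC replicate 4 and 54 without F0C replicate 2. The birds whose removal moved the counts most were those with the highest and lowest averages.

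Among the regions with higher levels in F0EHC, the 8 with the smallest limma p differed by between 7.58 and 12.0 points. They were chosen by that p, so the exact p-values beside them are a description. The first was chr27:4012960-4013122, with gene ID ENSGALG00000029558. Its F0C birds were at 59.2%, 63.96%, 57.7%, 60.2% and 58.96%, and its F0EHC birds at 64.3%, 77.2%, 69.5% and 71.4%. All 4 F0EHC birds were thus above all 5 F0C birds, though the gap between the highest F0C and the lowest F0EHC bird was small. The means were 60.01% ± 2.39 (SD, n = 5) and 70.6% ± 5.33 (SD, n = 4), a difference of 10.6 points (exact permutation p = 0.00794, the smallest possible here; limma unadjusted p = 0.00336, adjusted p = 0.256).

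The same order without overlap was seen at 2 regions of chromosome 3. The 12 bp region chr3:105927468-105927479 (ENSGALG00000016610) was at 77.5%, 76.2%, 78.7%, 76.7% and 75.6% in F0C and at 81.5%, 86.5%, 84.9% and 86.9% in F0EHC. It was among the shortest of the highly methylated regions and, at a mean of 80.5%, the third highest. The difference was 7.97 points, with SDs of 1.21 and 2.44 (exact permutation p = 0.00794, limma adjusted p = 0.256). At chr3:105955752-105955801 (ENSGALG00000016617) the F0C birds were at 65.4%, 63.7%, 70.3%, 67.6% and 68.7% and the F0EHC birds at 75.8%, 73.2%, 70.6% and 79.2%. The groups were separated there by less than 1 point, between F0C replicate 3 and F0EHC replicate 3. The difference was 7.58 points (exact permutation p = 0.00794, limma adjusted p = 0.256).

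On chromosome 11, chr11:19828899-19829157 (ENSGALG00000000713) was at 60.1%, 57.4%, 59.8%, 58.0% and 63.7% in F0C and at 67.7%, 65.7%, 71.3% and 65.0% in F0EHC, again without overlap (difference 7.61 points, exact permutation p = 0.0159). The fifth region without overlap, on chromosome 18, is described with its gene below. In the other 3 regions a single bird crossed over. On a random contig of chromosome 30 (41872 to 41922, ENSGALG00000039573), F0C replicate 4 was at 75.1% while the other F0C birds were between 56.4% and 61.7% and the F0EHC birds between 71.8% and 76.4%. The difference of 12.0 points there was the largest of the 8 (exact permutation p = 0.0317). At chr22:2873129-2873176 (ENSGALG00000037860) the F0C birds were between 61.0% and 67.8% and the F0EHC birds between 67.5% and 73.9%, a difference of 7.86 points (exact permutation p = 0.0238). At chr13:8385676-8385738 (ENSGALG00000001206) the F0C birds were between 50.03% and 60.1% and the F0EHC birds between 58.4% and 75.3%, a difference of 10.7 points (exact permutation p = 0.0317). The directly adjoining region with the same gene ID was also higher in F0EHC, by 8.18 points, with overlap (exact permutation p = 0.111).

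Among the regions with lower levels in F0EHC, the 8 with the smallest limma p differed by between -7.46 and -13.6 points. The largest of these differences was at chr11:6890764-6890880 (ENSGALG00000003891). Its F0C birds were at 66.3%, 80.7%, 64.1%, 72.8% and 56.6%, and its F0EHC birds at 51.4%, 56.1%, 54.96% and 55.65%. The F0EHC birds lay close together and just below the lowest F0C bird, while the F0C birds were widely spread. The means were 68.1% ± 9.10 (SD, n = 5) and 54.5% ± 2.16 (SD, n = 4), a difference of -13.6 points (exact permutation p = 0.0159; limma unadjusted p = 0.00656, adjusted p = 0.256).

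Regions without overlap where the F0C birds lay closer together were seen on chromosomes 12 and 4. At chr12:2502112-2502187 (ENSGALG00000001849) the F0C birds were at 65.8%, 64.0%, 68.8%, 63.5% and 62.5% and the F0EHC birds at 59.9%, 57.2%, 57.0% and 55.8% (difference -7.46 points, exact permutation p = 0.00794). At chr4:1030497-1030591 (ENSGALG00000030618) the F0C birds were within 3 points of each other, at 69.5%, 71.8%, 72.0%, 69.4% and 69.9%, and the F0EHC birds were at 64.3%, 68.2%, 60.2% and 51.9% (difference -9.37 points, exact permutation p = 0.00794). In this region the spread was thus mostly among the F0EHC birds, with SDs of 1.301 in F0C and 6.94 in F0EHC. The remaining 5 regions overlapped between the groups. They lay at chr17:3844582-3844646 (-12.0 points), chr6:22275486-22275564 (-12.0 points), chr9:4824392-4824465 (-11.3 points), chr20:10794451-10794499 (-8.50 points) and chrUn_NT_464199v1:33732-33780 (-10.1 points), with exact permutation p between 0.0238 and 0.0476. The limma adjusted p was 0.256 for each of these 16 regions.

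**Figure D3:**
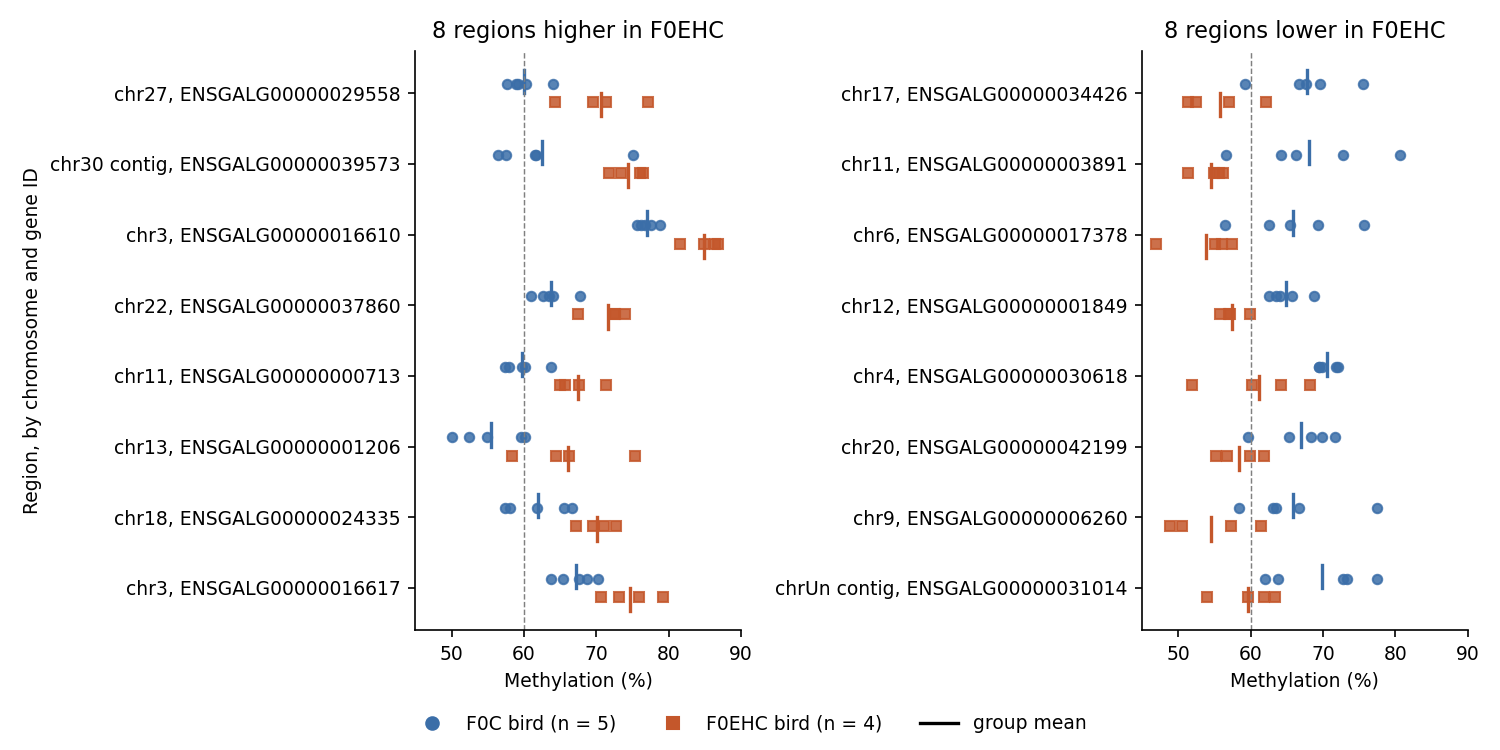
Methylation (horizontal axis, percent) of each bird in the 8 higher and the 8 lower regions with the smallest limma p, with F0C birds as circles, F0EHC birds as squares and group means as short bars. The groups do not overlap in 5 of the higher and 3 of the lower regions, and the dashed line marks 60%.

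Of these 16 regions, 7 kept an exact p under 0.05 when any 1 bird was left out, and the direction held in all 16. The 7 were chr27:4012960-4013122, both regions of chromosome 3, chr11:19828899-19829157, chr18:38052-38129, chr12:2502112-2502187 and chr4:1030497-1030591. Among them, chr12:2502112-2502187 had an exact permutation p of 0.0635 when group medians replaced means. All 7 were regions without overlap between the groups. Groups that do not overlap stay apart when a bird is left out, so the kept p mostly restates that absence of overlap. Absence of overlap did not ensure a kept p, however. The groups did not overlap at chr11:6890764-6890880 either, which passed 0.05 in only 5 of the 9 fits (largest exact permutation p = 0.0536). The other 9 passed 0.05 in between 1 and 5 of the 9 fits with a bird left out, where fewer permutations are possible and the smallest p rises to 0.0179 or 0.0286.

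Spread between birds, taken as the SD over the 9 libraries, had a median of 5.32 points (quartiles 4.42 and 6.59), against 5.36 over all listed regions. Within groups the median SD was 4.86 points in F0C and 4.44 in F0EHC. A few regions owed their spread to a single bird. The largest SD, 24.6 points, was at chr7:16140749-16140776 (ENSGALG00000040585), where F0EHC replicate 1 was at 3.16% and the other 8 birds were between 72.9% and 82.1%. This region also had the largest loss of the 589 (-17.7 points, exact permutation p = 0.333), and without F0EHC replicate 1 it turned to a gain of 0.793 points (exact permutation p = 0.786). The difference there thus rested on 1 bird.

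In the region of a random contig of chromosome 25 (6600 to 6728, ENSGALG00000032109), F0C replicate 2 was at 32.6% and F0EHC replicate 2 at 30.0%, while the other 7 birds were between 63.7% and 76.3%. The 2 low birds belonged to different groups, and without F0EHC replicate 2 the difference of -4.70 points turned to 4.77 points (exact permutation p = 0.556 and 0.875). At chr4:74159748-74159785 (ENSGALG00000018557), F0C replicates 1 and 2 were at 35.7% and 26.1% and the other birds between 62.7% and 74.6%. At chr10:19615868-19615890 (ENSGALG00000034100), F0EHC replicate 3 was at 27.7% and F0EHC replicate 1 at 51.3%, against 55.1% to 72.7% in the other birds. At chr1:32605658-32605817 (ENSGALG00000042870) the odd bird was high, with F0C replicate 4 at 94.4% and the others between 48.4% and 76.7%. Low outlying birds were thus seen more often than high ones in the regions named here. The whole set includes these regions. In it, 29 regions had a bird at least 20 points below the median of the others, and 11 had one that far above. Such birds came from both groups, with F0C replicates 2 and 1 low in 9 and 8 regions and F0EHC replicate 3 low in 5. The regions were chosen for a high mean, which leaves less room above them than below them on a percent scale. More low than high outlying birds can thus be partly built in. Such counts over all listed regions are not given here, so the excess is not shown to be particular to the highly methylated regions.

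**Figure D4:**
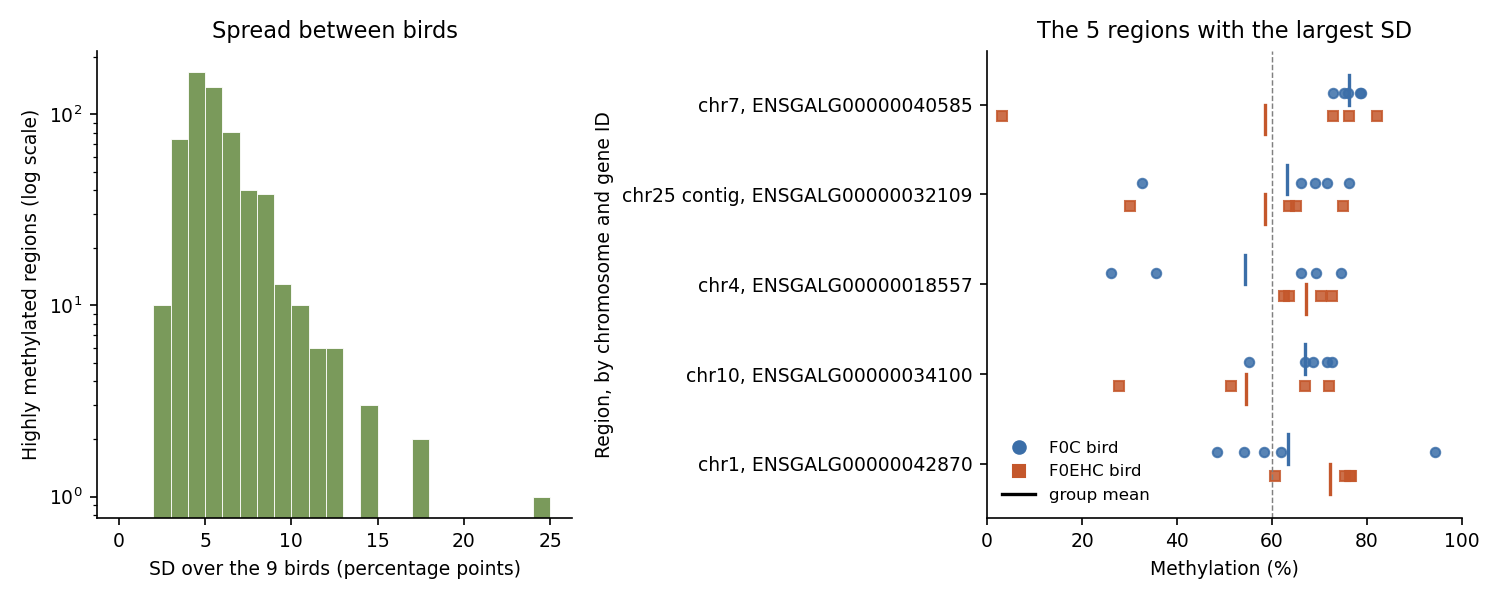
Left, the number of highly methylated regions (log scale) by SD over the 9 birds (percentage points). Right, methylation (percent) of each bird in the 5 regions with the largest SD, where the lowest value is 3.16% in F0EHC replicate 1 on chromosome 7 and the dashed line marks 60%.

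The 3 regions with the highest mean were chr28:3947918-3948126 (ENSGALG00000030344), chr5:264399-264641 (ENSGALG00000038767) and the 12 bp region of chromosome 3 given above. The first stood at 83.5%, 81.3%, 81.4%, 84.0% and 87.2% in F0C and at 80.7%, 75.2%, 80.4% and 83.1% in F0EHC (mean 81.9%, difference -3.66 points, exact permutation p = 0.0794). The second ranged from 70.3% to 87.5% in F0C and from 80.3% to 86.1% in F0EHC (mean 81.1%). Regions above 70% more often carried a loss, 41 against 31 gains, while those from 60% to 70% carried 252 losses and 265 gains. This difference was not tested.

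The highly methylated regions were mostly short. Their median length was 60 bp (quartiles 40 and 89, range 12 to 675), against 72 bp over all listed regions, and 70 of them (11.9%) spanned 30 bp or less, against 5.83% of all. Regions above 70% had a median length of 45 bp.

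By place, the highly methylated share of the listed regions was 14.1% on unplaced or random contigs and a small linkage group (117 of 828) and 8.43% on assembled chromosomes (472 of 5600). Chicken chromosomes fall into large macrochromosomes and small gene-dense and CpG-rich microchromosomes. The share was 10.5% on macrochromosomes 1 to 5, 7.54% on chromosomes 6 to 10 (65 regions), 7.70% on microchromosomes 11 to 33 (247 regions) and 10.3% on the Z chromosome (15 regions), and the 1 listed region of the W chromosome was not among them. Among chromosomes with at least 50 listed regions, the share was highest on chromosome 22 with 19 of 70 (27.1%), followed by chromosome 21 with 19 of 125 (15.2%), chromosome 24 with 14 of 94 (14.9%) and chromosome 1 with 50 of 353 (14.2%). Contigs also held 26 of the 72 regions above 70% (36.1%), against 91 of the 517 regions between 60% and 70% (17.6%). On chromosome 21, 15 regions were higher in F0EHC and 4 lower, on chromosome 17 the split was 4 and 11, and on contigs it was 51 and 66. Over all listed regions of these places, 63.2% were higher on chromosome 21, 61.2% on chromosome 17 and 57.1% on contigs, against 78.9%, 26.7% and 43.6% of the highly methylated ones. Chromosomes 21 and 17 had among the most uneven splits of the 30 assembled chromosomes with a highly methylated region, and are named for that. The differences were not tested, and the counts per chromosome are small. Some of these regions lie close together and are not independent of each other. Chromosome 22 held 3 within 362 bp and 3 within 560 bp, and chromosome 21 held 3 within 226 bp.

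Highly methylated regions that lay within 500 bp of each other formed 36 neighbouring pairs, of which 22 (61.1%) had the same direction, against 62.5% of the 936 such pairs in the whole list.

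The deposited table paired 557 of the 589 regions with 463 Ensembl gene IDs and gave none for 32. It does not say where in or near the gene a region lies. Of the IDs, 395 had 1 highly methylated region, 51 had 2 and 17 had at least 3. Among those 17, all highly methylated regions were higher in F0EHC in 3 IDs, all were lower in 3 and the direction was mixed in 11.

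ENSGALG00000024335 on chromosome 18 had the most, with 8 highly methylated regions of 17 listed, of which 3 were higher and 5 lower in F0EHC. The 8 lay between positions 36688 and 48740, where the other 4 listed regions had means between 51.6% and 58.9%, and 2 listed regions further along, 24612 and 26802 bp from the first, had means of only 1.71% and 6.84%. Regions of opposite direction without overlap lay in the same gene ID. At chr18:38052-38129 the F0C birds were at 57.4%, 61.8%, 65.5%, 58.1% and 66.7% and the F0EHC birds at 71.0%, 72.7%, 69.6% and 67.1% (difference 8.19 points, exact permutation p = 0.0159). At chr18:46804-46860 the F0C birds were at 71.4%, 72.3%, 71.8%, 68.3% and 68.4% and the F0EHC birds at 68.2%, 67.6%, 65.5% and 58.7% (difference -5.49 points, exact permutation p = 0.00794). In both regions the groups were separated by less than 1 point. The closest birds were F0C replicate 5 and F0EHC replicate 4 in the first, and F0C replicate 4 and F0EHC replicate 1 in the second. The limma unadjusted p was 0.0121 in the first and 0.0636 in the second, and the adjusted p was 0.256 in both.

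**Figure D5:**
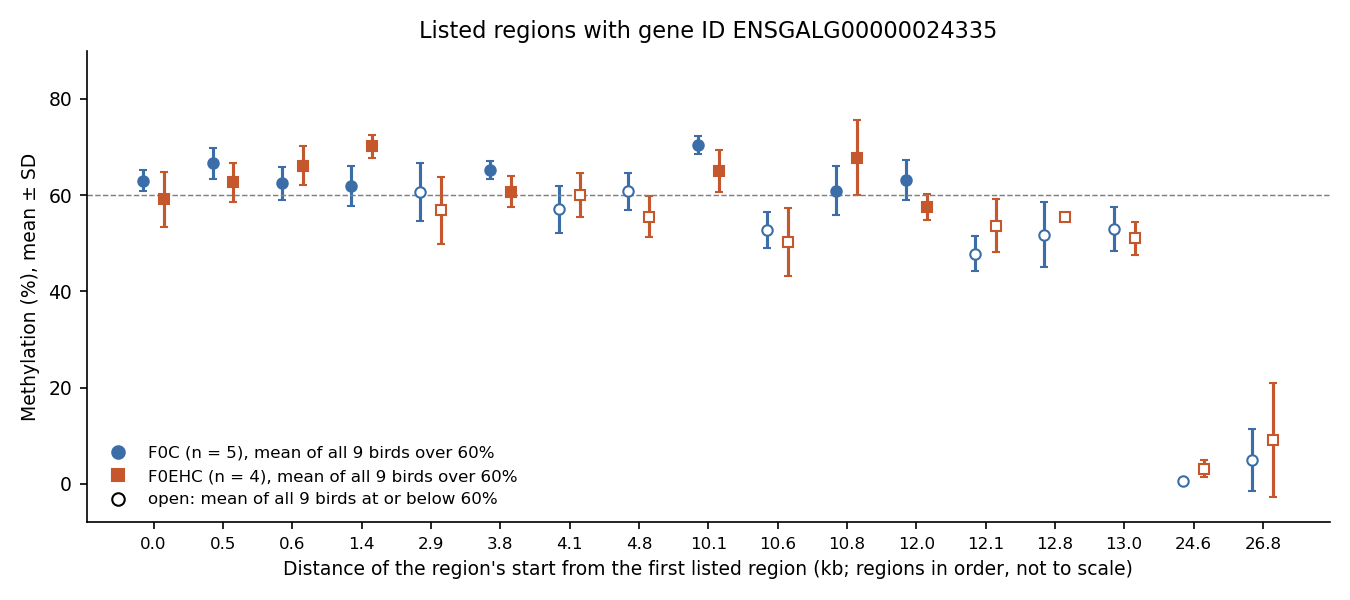
Mean methylation (vertical axis, percent, bars are SD) in F0C (circles, n = 5) and F0EHC (squares, n = 4) of the 17 listed regions of ENSGALG00000024335, in order of position with the distance from the first in kb. Filled symbols are the 8 highly methylated regions, and the last 2 regions have means of 1.71% and 6.84%.

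The next IDs by number were also mixed. ENSGALG00000043139 on chromosome 5 held 5 highly methylated regions within 3794 bp, 4 higher (3.13 to 4.92 points) and 1 lower (-5.87 points) in F0EHC. ENSGALG00000039058 on chromosome 19 held 1 higher and 3 lower, and ENSGALG00000034229 on chromosome 22 held 2 of each. In the latter, chr22:2160410-2160527 carried the highest value of any bird in the 589 regions, 100% in F0C replicate 4, where the other birds were between 60% and 89.1%.

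Of the 17 IDs, those with all highly methylated regions in the same direction covered short stretches, apart from ENSGALG00000036539. Each ID also held listed regions at or below 60%, whose direction is not given here. Listed in all were 7 regions for ENSGALG00000037860, 4 for ENSGALG00000005423, 8 for ENSGALG00000034453, 5 for ENSGALG00000029544 and 6 each for ENSGALG00000040489 and ENSGALG00000036539. ENSGALG00000037860 on chromosome 22 held 3 regions within 362 bp, all higher in F0EHC, by 7.86, 11.4 and 5.75 points. In the second of these, chr22:2873421-2873449, the F0C birds were at 46.4%, 58.0%, 57.0%, 60.4% and 65.8% and the F0EHC birds at 60.7%, 80.6%, 72.3% and 61.9%, so that the groups overlapped (exact permutation p = 0.0794). ENSGALG00000005423 on the Z chromosome held 3 higher regions within 605 bp (3.17 to 5.15 points) and ENSGALG00000034453 on chromosome 21 held 3 within 226 bp (3.40 to 8.29 points). On the other side, ENSGALG00000029544 on chromosome 22 held 3 lower regions within 560 bp (-3.77 to -8.13 points), ENSGALG00000040489 on contig NT_464134v1 held 3 within 565 bp (-4.96 to -8.18 points) and ENSGALG00000036539 on chromosome 4 held 3 over 24263 bp (-2.95 to -10.2 points). Regions this close can share reads and are not independent of each other.

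A gene symbol could be given for 10 of the 589 regions. Symbols were available only for genes in the study's lists of differentially methylated regions and of genes changed after miR-200a injection. The named genes are thus not a neutral sample of the 589 regions. They included CSPG5, which encodes a chondroitin sulfate proteoglycan of the brain, SLC2A1, which encodes a glucose transporter, MSI2, an RNA-binding protein, KIF23, a kinesin of cell division, HPX, a plasma protein that binds haem, RARRES2, which encodes the signalling protein chemerin, and PIPOX, a peroxisomal oxidase, as these genes are known in mammals. Both CSPG5 regions were higher in F0EHC. At chr2:842322-842351 the F0C birds were at 68.4%, 71.1%, 68.8%, 69.3% and 72.1% and the F0EHC birds at 78.8%, 78.4%, 68.4% and 72.6% (difference 4.64 points, exact permutation p = 0.103). The SLC2A1 region chr21:6493668-6493693 was at 68.6%, 62.6%, 74.3%, 62.4% and 66.0% in F0C and at 61.2%, 63.4%, 61.0% and 63.7% in F0EHC (difference -4.43 points, exact permutation p = 0.111). At RARRES2, chr2:388381-388417, the F0C birds were between 70.9% and 73.2%, and 3 F0EHC birds were between 76.4% and 77.3% while F0EHC replicate 4 was at 70.2% (difference 3.51 points, exact permutation p = 0.0873). The other 7 regions, among them those of AHDC1 and FBRSL1, differed by between -3.94 and 5.73 points. All 10 regions overlapped between the groups.

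Few highly methylated regions held a single cytosine that the authors had listed as differentially methylated. Such cytosines, 7 in all, lay in 6 of the 589 regions (1.02%), against 3.76% of all listed regions and 1.94% of those between 40% and 60%. They were selected on the same libraries and are described with no test. The site at chr11:1417257, which the study places in an exon of HSD11B2, the enzyme that inactivates glucocorticoids, averaged 50.7% ± 26.2 in the F0C birds (SD, n = 5) and 78.2% ± 11.8 in the F0EHC birds (SD, n = 4), at 23 to 40 reads per library. The site at chr17:2285495, placed at the promoter of ANAPC2, a subunit of the complex that drives exit from mitosis, averaged 22.3% ± 14.9 (SD, n = 5) and 59.2% ± 3.46 (SD, n = 4), at 17 to 41 reads. The difference at this cytosine, 36.9 points, was much larger than that of the whole region around it, 5.51 points. The 2 adjoining positions chr27:3384879 and chr27:3384880 were placed between genes and assigned to NXPH3, a ligand of neurexins. They can be the 2 strands of 1 CpG and may not be separate sites. They averaged 88.9% ± 2.99 and 66.0% ± 8.06 in the F0C birds (SD, n = 5), and 44.5% ± 36.5 and 36.3% ± 26.6 in the F0EHC birds (SD, n = 4). The region around them differed by -10.8 points, with the F0EHC birds at 58.2%, 62.0%, 50.6% and 79.8%, so that F0EHC replicate 4 lay above 4 of the F0C birds. In each of the 6 regions the region and its listed cytosines differed in the same direction. Each such cytosine lies inside its region and was selected on the same libraries, so the shared direction is largely built in.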

How the data were processed

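Sperm RRBS libraries of 9 males (5 F0C, 4 F0EHC) were grouped by their titles. Per the design text, the authors trimmed reads with Trim Galore, mapped them to galGal5 with Bismark 0-22-3 in bowtie mode and obtained regions with metilene 0.2-8. The deposited region values are the percent methylation of each region per bird, averaged by the authors, with no depth. The site table of 1286 cytosines holds methylated and unmethylated read counts deposited without normalization, kept by the authors where each library had 8 reads or more and edgeR gave an FDR under 0.05. Starts in the region table are counted from 0, and 1 was added here (start plus 1 matched a listed cytosine in 30 regions, the start itself in 5). Spreadsheet errors in place of 31 F0C values were taken as missing, of which 2 fell in highly methylated regions. The authors' own test columns were not used. Their supplementary lists of sites, regions and changed genes served only to pair gene IDs with symbols (95 of 3626 IDs) and listed sites with genes. The RefSeq table given (GRCg7b) holds no Ensembl IDs, so the lookup of 3 gene lists (methylation machinery, heat shock, germ line) was void, with an ID paired for 3 of 44 genes and 0 in the highly methylated regions.

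Percentages were fitted over all 6428 regions with limma 3.58.1 (R 4.3.3, trend over mean level), with Benjamini-Hochberg adjustment over all of them. For single regions, the two-sided exact permutation test used all 126 ways of drawing 4 of 9 libraries (smallest p 0.00794), adjusted likewise over all regions, where adjustment over the named regions had been planned. Differences are F0EHC minus F0C. The fit was tested on simulated data with 100 regions changed by 10 points and 100 by 20 points of 6397 complete regions, and called 30% and 84% of them. It also called 4 of 6197 unchanged regions. The changed regions were drawn from all methylation levels, so these rates are not those of the 589 regions. A change of their median size, 4.74 points, was not simulated. Regions were named by rule: the 8 higher and 8 lower with the smallest limma p, the 5 with the largest SD, the 3 highest, the 3 nearest the threshold on each side, and gene IDs with at least 3 regions. Others named (regions with symbols, listed cytosines, regions of same-direction IDs) were added after their values were seen. The regions and lists were chosen with earlier results of these data known. Alternatives were other thresholds, group medians, assembled chromosomes, complete regions, a logit scale, no trend, a replicate block and each library left out. Replicates are separate birds.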

Additional observations from a re-analysis of the deposited data

Results flagged for a closer look

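Among the 54 groups of 4 or 5 birds examined for the named regions, 4 held a bird far from the rest by Dixon's criterion. Chance alone gives about 1 in 20 for groups picked without regard to spread, which does not apply here, since 3 of the 4 regions had been chosen for their large SD and the other by its limma p. F0EHC replicate 1 was at 3.16% in chr7:16140749-16140776, against 72.9% in the nearest bird of its group. F0C replicate 2 was at 32.6% in the chromosome 25 contig region, against 66.2%. F0C replicate 4 was at 75.1% in the chromosome 30 contig region, against 61.7%. F0EHC replicate 3 was at 60.7% in chr1:32605658-32605817, against 75.3%.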

How the results depend on the processing

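Direction counts stayed between 283 and 308 with either group medians, another way of averaging, complete regions or a bird left out. Hardly any of the 589 regions had a small difference, and the same regions were kept when a bird was left out. Few signs could therefore turn, and this stability is largely built in. Regions above 70% gave 31 higher and 41 lower, with 3 and 3 without overlap and 3 and 3 at a limma p under 0.05, and those above 80% gave 2 and 1, with 1 and 0 without overlap, since fewer regions enter. With a replicate block, limma gave 26 higher and 21 lower regions. The replicate numbers did not pair the birds (correlations of same-numbered deviations -0.0681, 0.109, -0.0323 and -0.0284, and 1 of 4 F0EHC birds correlated best with its own number), so birds share only a number. Leaving out 1 bird gave 13 to 40 higher and 13 to 36 lower regions without overlap, 23 to 69 higher and 21 to 54 lower ones by limma, an adjusted count of 0 throughout, and a mean difference of -0.69 to 1.04 points. Chosen after seeing the data, centring each library on its mean over all regions gave 10 higher and 31 lower regions without overlap, 37 higher and 77 lower ones by limma and a mean difference of -0.60 points, and leaving out F0C replicate 2 and F0EHC replicate 4 gave 44 and 38 regions without overlap. The shift of the mean difference with centring is built in, as given above, and no cause of the changed counts was tested. With 1 bird left out, the difference ranged from -25.5 to 0.793 points in the chromosome 7 region and from -12.3 to 4.77 points in the chromosome 25 contig region. Of 210 refits of 21 named regions, 2 turned the direction and 1 gained an exact permutation p under 0.05. Only the 16 regions with such a p could lose it. In 65 of their refits it was lost, and 10 of the 16 lost it at least once. Counts over all listed regions under these alternatives are not given here, so the changes are not shown to be particular to the highly methylated regions. Unknown depth and 9 birds limit precision.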
